A study of Mus musculus with 8 samples.

Results

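Control cells, B16F10 mouse melanoma cells stably carrying the empty pcDNA vector and kept at 1% oxygen, were compared with WT B16F10 cells kept at 21% oxygen. Both were cultured for 24 h, and each group had 2 libraries of the 8 in the series. Genes were described if they reached 1 TPM (a relative abundance of transcripts, corrected for their length) in at least 2 of these 4 libraries, which gave 12542 of the 55414 genes in the table. The other 4 libraries came from CypD OE cells, a stable line labelled as overexpressing *Ppif* at 1% oxygen, and CypD KO cells, in which *Ppif* was knocked out, at 21% oxygen. *Ppif* encodes cyclophilin D (CypD), the mitochondrial regulator of the permeability transition pore. The Control line was made by transfection, G418 selection and choice of resistant clones, whereas WT cells went through none of these steps. Oxygen, vector, selection and cloning therefore differed together between the groups, and their parts in any difference cannot be told apart. No library of Control at 21% oxygen or of WT at 1% oxygen was analysed here.

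Cells sense oxygen through prolyl hydroxylases (PHDs, encoded by *Egln1*, *Egln2* and *Egln3*), which use oxygen to mark the α subunits of hypoxia-inducible factor (HIF) for destruction by the von Hippel-Lindau (VHL) ligase. When oxygen is short, HIFα persists, pairs with ARNT, and binds a short core motif, ACGTG or GCGTG, near genes for glucose uptake, glycolysis, mitophagy, collagen hydroxylation and vessel growth. HIF1α is controlled mainly as a protein, so the level of its mRNA need not move with its activity. In melanoma, where pigment synthesis is driven by MITF, hypoxia is also linked to invasion.

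The promoters of the 4 genes of the glycolysis and HIF target lists that rose most and whose window held the core motif are shown, since these genes set the scale of the difference. Each is a RefSeq window on build GRCm38.p6, from 250 bases before to 50 bases after a transcription start, printed 5′ to 3′ on the gene's strand. Capitals mark ACGTG or GCGTG and the reverse complement of each.
*Bnip3*, chr7:138909457-138909756, minus strand: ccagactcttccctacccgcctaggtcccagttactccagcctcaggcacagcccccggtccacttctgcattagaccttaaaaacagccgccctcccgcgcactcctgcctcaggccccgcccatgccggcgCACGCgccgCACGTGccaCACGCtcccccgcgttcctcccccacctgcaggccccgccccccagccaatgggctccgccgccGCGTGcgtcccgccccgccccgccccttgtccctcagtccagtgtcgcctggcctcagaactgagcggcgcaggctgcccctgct
*Slc16a3*, chr11:120948817-120949116, plus strand: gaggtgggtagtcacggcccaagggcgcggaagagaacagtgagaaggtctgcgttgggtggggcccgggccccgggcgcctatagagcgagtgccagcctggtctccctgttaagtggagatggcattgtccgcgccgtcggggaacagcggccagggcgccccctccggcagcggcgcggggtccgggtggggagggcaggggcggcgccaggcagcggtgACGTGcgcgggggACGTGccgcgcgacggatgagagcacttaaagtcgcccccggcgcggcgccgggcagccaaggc
*Pdk1*, chr2:71872974-71873273, plus strand: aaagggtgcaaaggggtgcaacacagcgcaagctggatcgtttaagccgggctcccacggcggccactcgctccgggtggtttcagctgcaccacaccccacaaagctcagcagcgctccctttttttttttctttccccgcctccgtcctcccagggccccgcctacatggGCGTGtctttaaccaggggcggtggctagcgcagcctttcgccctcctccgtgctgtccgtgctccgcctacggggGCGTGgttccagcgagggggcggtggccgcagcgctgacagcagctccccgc
*Adm*, chr7:110627407-110627706, plus strand: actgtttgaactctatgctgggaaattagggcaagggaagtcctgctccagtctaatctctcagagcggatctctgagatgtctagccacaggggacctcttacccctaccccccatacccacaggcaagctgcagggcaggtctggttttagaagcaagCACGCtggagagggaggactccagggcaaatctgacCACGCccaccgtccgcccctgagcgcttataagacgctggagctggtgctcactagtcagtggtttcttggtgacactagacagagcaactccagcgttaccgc

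*Bnip3* had 5 matches, of which the pair in CACGTG overlap because that sequence reads the same on both strands. The other windows held 2 matches each, in *Slc16a3* as ACGTG, in *Pdk1* as GCGTG and in *Adm* as the reverse complement of GCGTG. *Pdk1* had 2 windows, of which the 1 with more matches is printed, and the other held 0. Such matches were common in general, with 63.3% of the 11691 windows of genes tested holding at least 1, and 43.8% of all 32851 windows. The share was 65.5% among windows of genes higher in Control, 65.4% among those of genes lower, and 62.5% among those of genes not called. In windows of the glycolysis and HIF target genes that were higher it was 80.0% of 65, in those of all tested genes of these lists 76.3% of 93, and in those of all genes higher by more than 1 on the log2 scale 64.2% of 151. Windows of tested genes held 21.4 CpG dinucleotides on average, and 12.4 was the mean over all windows.

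The difference from WT was broad and, for most genes, small. Of the 12542 genes, 1684 were higher and 1694 lower in Control at an adjusted p under 0.05 (limma on log2(TPM + 1), Benjamini-Hochberg adjustment), which is 13.4% and 13.5% of the genes and 26.9% together. The median log2 fold change was 0.42 among genes that rose and -0.35 among those that fell, and 0.01 over all genes tested. Large differences were mostly increases, with 183 genes higher by more than 1 on the log2 scale and 54 lower by more than 1. Among protein-coding genes these numbers were 121 and 29. The filter could let a gene pass through the group where it was high, as 179 genes at 1 TPM or more in both Control libraries and under 1 in both WT libraries did, and 106 genes the other way round. Among the 11526 genes at 1 TPM or more in all 4 libraries, 122 rose and 24 fell by more than 1. The filter's edge fell between 15 genes whose second highest value of the 4 libraries was 1 TPM and 21 genes at 0.99 TPM. With 1 of the 4 libraries left out, 993 to 1154 genes were higher and 1067 to 1156 lower, the fewest higher without Control replicate 2 and the fewest lower without WT replicate 2.

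**Figure D1:**
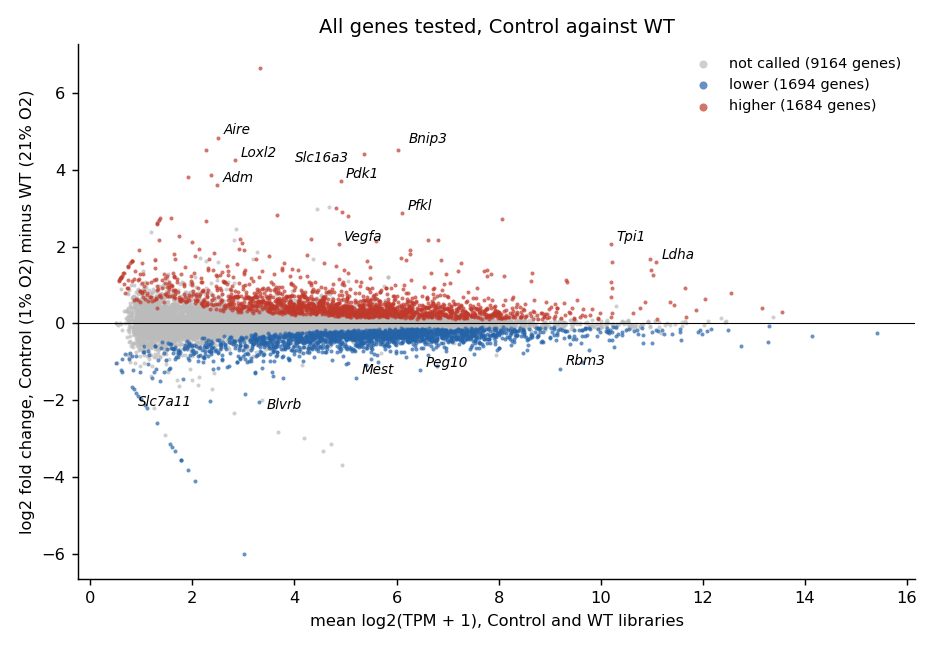
Each point is 1 of the 12542 genes tested, with its mean log2(TPM + 1) over the Control and WT libraries on the x axis and its log2 fold change, Control minus WT, on the y axis. Of the 1684 genes higher in Control (red), 183 lie above 1, and of the 1694 lower genes (blue), 54 lie below -1. The diagonal streaks at the left are genes listed at 0 in one group.

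TPM carries no read total, so depth was estimated from the spacing of low values. For 1 kb of effective gene length, 1 fragment corresponded to 0.0895 to 0.0975 TPM in the 4 libraries. For 3 fragments the value was 0.269 to 0.293 TPM. These limits cover counting error only. Spacing and fragment length were chosen to bring low values closest to whole fragment numbers. After that choice 83.0% to 84.7% of low values lay within 0.15 of one, which is therefore no independent check. Evenly spread values, without such a choice, would give 30%. Between 17942 and 18335 genes were above 0 per library. Replicates differed by a median of 0.1 on the log2 scale in both groups, and their values correlated across genes at 0.985 in Control and 0.986 in WT, genes not being independent replicates. Whether the replicates were separate cultures is not stated, so p-values measure only the spread between these libraries. In bulk RNA, a gene expressed by more of the cells and a gene expressed at a higher level per cell cannot be told apart.

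The libraries carried the transcripts of pigment cells. All 9 melanocyte markers were measured, summing to 20870 and 21432 TPM in Control and 16077 and 15970 TPM in WT. Of these, 8 were called higher, where 13.4% of all genes tested were. Markers of other cell types were low. Of 10 fibroblast markers, 4 were tested and none was called at an adjusted limma p under 0.05, nor at an unadjusted p under 0.05 (0 of 4). The list summed to 26.3 and 24.1 TPM in Control and 22.5 and 19.8 TPM in WT, with *Dcn* and *Thy1* listed at 0. The 11 macrophage and lymphocyte markers summed to at most 4.90 TPM in these libraries, almost all of it *Cd68*, with *Ptprc*, *Adgre1* and *Itgam* at 0. The 7 keratinocyte markers summed to at most 0.44 TPM. Among 7 endothelial markers, *Vwf* stood at 2.90 and 3.01 TPM in Control and 1.42 and 0.51 TPM in WT (adjusted p = 0.0222), a call that was lost without Control replicate 1, Control replicate 2 or WT replicate 2 (adjusted p = 0.0806 to 0.0898), and *Cdh5*, *Emcn* and *Cldn5* were at 0. The 4 Y-linked genes searched were at 0 in all 8 libraries.

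*Ppif* itself was not targeted in either group. The 2 Control values were 44.6 and 42.3 TPM, against 50.7 and 49.99 TPM for WT. The groups did not overlap, but the difference of -0.21 ± 0.07 (SE, log2 scale, n = 2 per group) did not pass the test (limma adjusted p = 0.0756). *Ppif* stood near this WT level in the libraries labelled CypD OE (50.3 and 49.3 TPM), and its CypD KO mean was 11.3 TPM.

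The 10 largest increases included *Aire* (log2 fold change 4.83), its neighbour *Pfkl*, *Bnip3*, *Slc16a3* and *Loxl2*. *Bnip3*, which marks mitochondria for autophagy, was at 311 and 307 TPM in Control and 14.4 and 11.1 TPM in WT, 24.2-fold higher (log2 fold change 4.51 ± 0.11 SE, adjusted p = 1.07e-06). *Slc16a3*, the lactate exporter MCT4, was at 177 and 197 TPM in Control and 7.89 and 7.90 TPM in WT. Its fold was 23.7, and the spread within WT was far smaller than this difference. *Loxl2*, a lysyl oxidase that cross-links collagen, was at 29.3 and 31.3 TPM in Control and 0.70 and 0.59 TPM in WT (log2 fold change 4.25 ± 0.12 SE). *Kbtbd11*, a BTB and kelch domain gene, was at 18.4 and 18.9 TPM in Control and below 0.5 TPM in both WT libraries.

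*Pdk1*, the kinase that shuts pyruvate dehydrogenase, stood at 101 and 113 TPM in Control and 7.35 and 7.26 TPM in WT, a 14.7-fold difference. *Adm*, the vasodilator adrenomedullin, was at 20.6 and 16.7 TPM in Control and 1.24 and 0.16 TPM in WT. The WT libraries differed from each other here by more than for the other leading genes, and *Adm* still rose (3.60 ± 0.31 SE, adjusted p = 0.00035). *Ak4*, a mitochondrial adenylate kinase, was 8.84-fold higher, at 81.5 and 76.2 TPM against 8.89 and 8.96 TPM. *Txnip*, which restrains glucose uptake and binds thioredoxin, was 8.05-fold higher, at 82.1 and 81.5 TPM against 9.68 and 10.6 TPM.

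Neighbours on chromosome 10 were both among the 10 largest increases. *Pfkl*, the liver-type phosphofructokinase of glycolysis, lies at chr10:77818084-77845922 (GRCm39, minus strand) and was at 175 and 193 TPM in Control and 25.3 and 23.6 TPM in WT. *Aire*, a regulator best known for self-antigen expression in the thymus, lies at chr10:77865321-77879444 on the same strand, 19399 bases upstream of *Pfkl*. It was at 25.9 and 33.2 TPM in Control, 0.14 TPM in WT replicate 1 and 0 in WT replicate 2. No fold is given against a level of so few fragments, and the log2 fold change of 4.83 depends on the pseudocount of 1. Of the protein-coding neighbours on the far side of *Aire*, *Dnmt3l* was at 0 in all 4 libraries and *Icosl* was between 0.14 and 0.56 TPM. Farther on, *Gatd3a* was at 21.4 and 23.1 TPM against 19.3 and 17.1 TPM (adjusted p = 0.0465), and *Pwp2* was at 18.1 and 20.7 TPM against 23.7 and 25.5 TPM (adjusted p = 0.0267). The call for *Gatd3a* was lost without either Control replicate or WT replicate 2 (adjusted p = 0.0816 to 0.197), and that for *Pwp2* without Control replicate 1 or either WT replicate (adjusted p = 0.0553 to 0.124). In CypD KO *Aire* had 1.43 and 1.24 TPM, and it was listed at 0 in both CypD OE libraries.

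**Figure D2:**
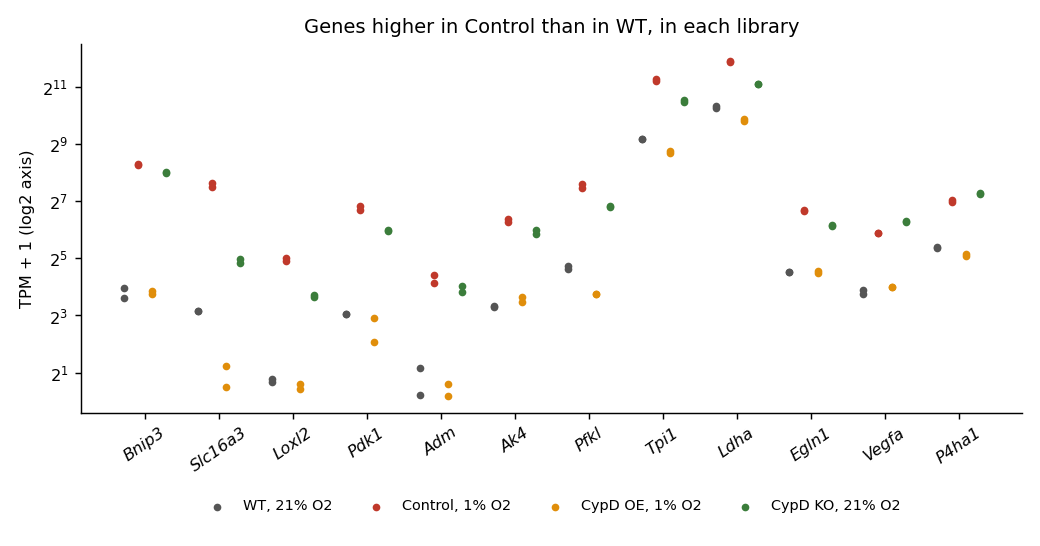
TPM + 1 on a log2 axis for 12 genes that were higher in Control, in all 8 libraries, 1 point per library and 2 per group. In each gene both Control points (red) lie above both WT points (grey), and CypD OE points (orange) lie near or below those of WT.

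The HIF target list held 60 genes in the table, of which 47 were tested. At the threshold, 39 were higher and 1 lower, 83.0% and 2.13% of those tested, where 13.4% and 13.5% of all genes were. Counts of every other list are to be read beside these same shares of all genes. The median log2 fold change was 1.31 beside 0.01 over all genes. This list, like the others, was chosen with earlier results of these data known, so the contrast only describes its members. With 1 library left out, 37 to 39 were higher. Of the 42 members at 1 TPM or more in all 4 libraries, 35 were higher, and their median was 1.15. Of the 13 not tested, 10 were under 1 TPM in all 8 libraries, *Angptl4* among them. The member that fell was *Ets1*, a transcription factor, at 178 and 183 TPM in Control and 214 and 218 TPM in WT, named here because it was the exception.

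The oxygen sensing machinery itself moved unevenly, with 5 of 18 tested genes higher and 2 lower (27.8% and 11.1%). *Egln1*, the main PHD of most cells, was at 102 and 99.3 TPM in Control and 22.1 and 21.9 TPM in WT, 4.58-fold higher (2.15 ± 0.05 SE, adjusted p = 1.07e-06). *Egln3*, a PHD that HIF itself induces, was at 8.06 and 7.06 TPM against 1.35 and 1.14 TPM. *Egln2* was at 22.4 and 22.5 TPM against 29.1 and 26.0 TPM, a fall that passed the test (adjusted p = 0.0375) but not in a fit of the 4 libraries alone (adjusted p = 0.0676) or without Control replicate 1, Control replicate 2 or WT replicate 1 (adjusted p = 0.117 to 0.167). The 3 PHD genes thus had 2 increases and 1 smaller decrease.

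*Hif1a* mRNA was at 138 and 135 TPM in Control and 139 and 152 TPM in WT, and the test did not call it (-0.09 ± 0.05 SE, adjusted p = 0.249). *Epas1*, which encodes HIF2α, was at 2.01 and 2.59 TPM in Control and 5.90 and 5.22 TPM in WT. It fell by 0.99 on the log2 scale (adjusted p = 0.00312). *Arnt*, the shared partner, was at 37.4 and 36.9 TPM against 37.4 and 34.2 TPM and was not called (adjusted p = 0.633), and neither was *Hif1an*, the asparaginyl hydroxylase of HIFα (adjusted p = 0.656). *Vhl*, the substrate subunit of the ligase, rose 1.70-fold, from 12.7 and 12.5 TPM to 20.9 and 21.9 TPM, and its partner elongin B (*Elob*) rose 1.24-fold. For the other ligase subunits, *Eloc*, *Cul2* and *Rbx1*, log2 fold changes were -0.14, -0.16 and 0.18 and the adjusted p was 0.102, 0.261 and 0.101. *P4ha1*, a collagen prolyl hydroxylase counted with this list, rose 3.18-fold.

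Glycolysis rose along most of its length. Among its 29 tested genes, all at 1 TPM or more in the 4 libraries, 17 were higher and 2 lower and the median change was 0.93 on the log2 scale. The whole list summed to 31961 and 33344 TPM in Control and to 14496 and 14100 TPM in WT. *Hk2*, which traps glucose in the cell, was at 143 and 143 TPM in Control and 39.0 and 41.8 TPM in WT. *Tpi1*, the triose phosphate isomerase, was at 2367 and 2463 TPM against 581 and 575 TPM, 4.18-fold higher. *Gapdh*, among the 10 most abundant genes of these libraries, was at 7792 and 8143 TPM against 4648 and 4515 TPM. Its increase was 1.74-fold, so it was not a constant reference between these groups.

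The members that fell were named because they were the exceptions. *Slc2a3*, the glucose transporter GLUT3, was at 8.33 and 9.10 TPM in Control and 13.9 and 13.7 TPM in WT, and *Bpgm*, the erythrocyte bisphosphoglycerate mutase, was 0.82 of WT (adjusted p = 0.045), a call that was lost without Control replicate 1, Control replicate 2 or WT replicate 1 (adjusted p = 0.069 to 0.189). In contrast, *Slc2a1*, which encodes GLUT1, was at 75.6 and 72.4 TPM against 22.1 and 25.0 TPM and rose.

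Downstream of pyruvate, some genes rose and others fell. Of 21 genes of pyruvate, lactate and pH handling, 6 were higher and 5 lower. *Ldha*, which turns pyruvate into lactate, was at 3706 and 3853 TPM in Control and 1277 and 1236 TPM in WT, a 3.01-fold increase. *Car9*, the extracellular carbonic anhydrase IX, was at 16.3 and 14.5 TPM against 3.11 and 2.07 TPM, 5.94-fold higher. The 5 that fell were *Pdha1*, *Dlat*, *Dld* and *Pdhx*, which encode parts of the pyruvate dehydrogenase complex, and *Slc4a7*, a bicarbonate transporter, with log2 fold changes from -0.27 to -0.51. The call for *Slc4a7* was lost without Control replicate 1, Control replicate 2 or WT replicate 2 (adjusted p = 0.0589 to 0.101). In the TCA cycle list 12 of 31 genes were lower and 2 higher (median -0.13), and without Control replicate 1 the number lower was 7, while none was higher at an adjusted p under 0.05 without Control replicate 2 or either WT replicate. *Idh3a*, a subunit of the NAD-dependent isocitrate dehydrogenase, was at 180 and 186 TPM against 247 and 236 TPM, and *Slc1a5*, a glutamine importer counted with this list, was at 0.65 of WT.

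In the list of glycogen and lipid genes 8 of 32 were higher and 7 lower (25.0% and 21.9%, median -0.03). The number higher was 5 without either Control replicate, and the number lower was 4 without Control replicate 1 and 2 without WT replicate 1. The 3 largest increases were of glycogen genes. *Gys1*, glycogen synthase, was 2.56-fold higher, *Ugp2*, which makes UDP-glucose, was 2.48-fold higher and *Pygl*, a glycogen phosphorylase, was 3.91-fold higher. *Cpt1a*, the gate of mitochondrial fatty acid oxidation, was at 5.24 and 6.66 TPM in Control and 10.5 and 9.98 TPM in WT. Its call was lost without Control replicate 1 or WT replicate 1 (adjusted p = 0.0502 and 0.0527).

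**Figure D3:**
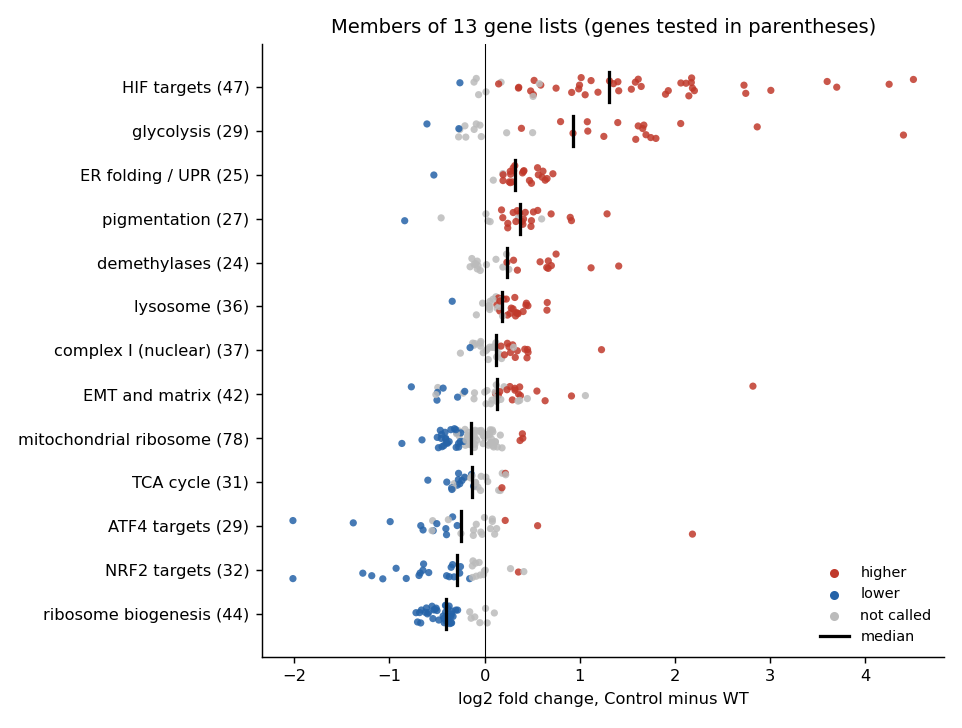
Log2 fold change (Control minus WT) on the x axis for the members of 13 gene lists, 1 row per list, with higher genes in red, lower genes in blue, genes that did not pass the test in grey and the median as a black bar. HIF targets and glycolysis reach furthest to the right, and 37 of 44 genes of the ribosome biogenesis row lie left of 0 in blue. Row labels are short forms. The ribosome biogenesis row also holds MYC targets, the NRF2 row glutathione and peroxide defence genes, and the ATF4 row integrated stress and amino acid genes.

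Mitochondria showed different changes in their separate gene groups. In the mitophagy list, 9 of 22 genes were higher and 3 lower. Next to *Bnip3*, its relative *Bnip3l* was at 212 and 202 TPM in Control and 42.4 and 47.8 TPM in WT. The third largest increase in this list, of *Calcoco1*, was 1.57-fold. *Sqstm1*, the autophagy receptor p62, fell by 0.40 and *Phb2* and *Nipsnap1* by 0.33 each, the 3 members that went down. Of 37 nuclear genes of respiratory complex I, 13 were higher and 1 lower (median 0.12). *Ndufv3* stood apart at 322 and 349 TPM against 141 and 145 TPM, 2.35-fold, and the next, *Ndufa13*, rose 1.38-fold. In complexes II to V, 14 of 44 genes were higher and 6 lower, and their changes lay between -0.24 and 0.29. The number higher was 6 without Control replicate 2 and 7 without WT replicate 2, and the number lower was 3 without either Control replicate and 2 without WT replicate 1.

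Of the 13 protein-coding genes of mitochondrial DNA, 7 were lower and 1 higher. *mt-Nd1* was at 5815 and 5430 TPM in Control and 8360 and 8632 TPM in WT, and *mt-Cytb* was at 8670 and 8109 TPM against 11543 and 12059 TPM. *mt-Co1* went the other way, at 13474 and 13124 TPM against 10748 and 10934 TPM. The gene models *Gm10925* and *Gm28661*, nuclear copies of mitochondrial sequence, were among the 10 most abundant genes, so the division of reads between copies makes these levels uncertain. The number lower was 3 without Control replicate 2, 4 without WT replicate 1 and 3 without WT replicate 2, since the calls for *mt-Nd4*, *mt-Nd5* and *mt-Nd6* were lost without any of these (adjusted p = 0.0575 to 0.152) and that for *mt-Nd2* without Control replicate 2 or WT replicate 2 (adjusted p = 0.0595 and 0.0744). *mt-Rnr2*, the 16S ribosomal RNA of mitochondria, was at 660 and 481 TPM against 1094 and 1166 TPM, but ribosomal RNA was depleted from these libraries and its remainder was uneven, as *Rn18s-rs5* at 3433 and 1251 TPM in the Control replicates shows.

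MYC targets and ribosome biogenesis genes, kept in 1 list, were mostly lower. Of its 44 genes, not all of which assemble ribosomes, 37 were lower and 0 higher at an adjusted p under 0.05. The median was -0.41, and 38 and 0 had an unadjusted limma p under 0.05. With 1 library left out, 34 to 37 were lower. *Nop58*, a core box C/D snoRNA protein, was at 731 and 642 TPM in Control and 1082 and 1155 TPM in WT. *Wdr12*, of the large-subunit assembly complex, was at 51.0 and 46.0 TPM against 77.7 and 83.3 TPM, and *Odc1*, the first enzyme of polyamine synthesis, was at 0.62 of WT. *Myc*, which drives many of these genes, was at 71.1 and 74.8 TPM against 99.1 and 93.4 TPM. Of 80 cytosolic ribosomal protein genes, 20 were lower and 2 higher, with changes between -0.30 and 0.11. The number lower was 13 without WT replicate 1, and the number higher was 0 without Control replicate 2 or WT replicate 2 and 1 without either of the others. Of 78 mitochondrial ribosomal protein genes, 25 were lower and 3 higher. *Mrps35* was at 60.2 and 63.6 TPM against 91.1 and 106 TPM, and *Mrpl19*, at 0.55 of WT, fell most, though its call was lost without Control replicate 2 or either WT replicate (adjusted p = 0.0539 to 0.0751). Among 21 lncRNA genes 3 were higher and 8 lower, with 4 lower without Control replicate 1 or WT replicate 1. Host genes of snoRNAs were among those lower, with *Snhg5* at 28.1 and 27.8 TPM against 61.0 and 60.2 TPM and *Snhg1* at 0.65 of WT. The lncRNA *Neat1*, the scaffold of paraspeckles, rose 2.45-fold, from 81.0 and 77.9 TPM to 197 and 192 TPM.

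Among the genes that fell most were several of redox and sulfur amino acid metabolism. *Blvrb*, a biliverdin and flavin reductase, was at 3.87 and 3.93 TPM in Control and 19.2 and 19.1 TPM in WT, 0.20 of WT (-2.04 ± 0.09 SE, adjusted p = 2.08e-05). *Slc7a11*, the cystine importer of system xc-, was at 1.68 and 1.40 TPM against 8.82 and 9.69 TPM, and *Cth*, which makes cysteine from cystathionine, was at 6.14 and 6.63 TPM against 16.9 and 19.6 TPM. Of 32 genes listed for NRF2, glutathione and peroxide defence, 19 were lower and 1 higher (median -0.29). *Osgin1* was at 5.11 and 4.85 TPM against 13.3 and 13.7 TPM, *Nqo1*, a quinone reductase, was at 2.01 and 3.06 TPM against 7.04 and 6.87 TPM, and *Srxn1*, which repairs oxidized peroxiredoxins, was at 0.46 of WT. The single member that rose was *Hmox1*, heme oxygenase 1, at 51.1 and 51.3 TPM against 38.8 and 40.8 TPM, which is also counted among the HIF targets.

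Of 29 genes listed for ATF4, integrated stress and amino acids, 11 were lower and 3 higher (median -0.25). Apart from *Slc7a11* and *Cth*, *Atf5* fell most, at 6.64 and 8.73 TPM against 14.5 and 17.96 TPM. *Ddit4*, an inhibitor of mTORC1 that is also a HIF target, went up 4.94-fold to 41.5 and 42.1 TPM. Endoplasmic reticulum folding genes behaved differently, with 22 of 25 higher and 1 lower (median 0.32). Their increases were modest, with *Sdf2l1* at 112 and 116 TPM against 68.0 and 70.1 TPM and *P4hb*, protein disulfide isomerase, at 907 and 914 TPM, 1.53-fold higher. *P4hb* is also the β subunit of collagen prolyl hydroxylase. The member that fell was *Selenos*, at 0.69 of WT.

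Other genes among the 10 largest decreases had no list in common. *Mest* and *Peg10*, both imprinted genes, were at 21.7 and 21.6 TPM against 60.9 and 57.7 TPM and at 58.1 and 55.4 TPM against 131 and 136 TPM. *Rbm3*, the cold-inducible RNA-binding protein, was the most abundant of them, at 380 and 400 TPM against 885 and 890 TPM, 0.44 of WT. *Fxyd5* was at 8.64 and 6.27 TPM against 18.1 and 25.2 TPM. *Srl*, sarcalumenin, was at 0.38 of WT. *Usp2*, a deubiquitinase, was at 5.61 and 7.88 TPM against 15.1 and 19.98 TPM, and its call was lost without Control replicate 1 or WT replicate 2 (adjusted p = 0.0533 and 0.0574). *Rpl39-ps*, a ribosomal protein pseudogene, was listed at 0 in both Control libraries and at 13.4 and 13.1 TPM in WT. It shares its sequence with other copies, and its call was lost without any 1 of the 4 libraries (adjusted p = 0.105 to 0.107), so its change is uncertain. Of the 54 genes lower by more than 1 on the log2 scale, 19 were listed at 0 in both Control libraries.

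**Figure D4:**
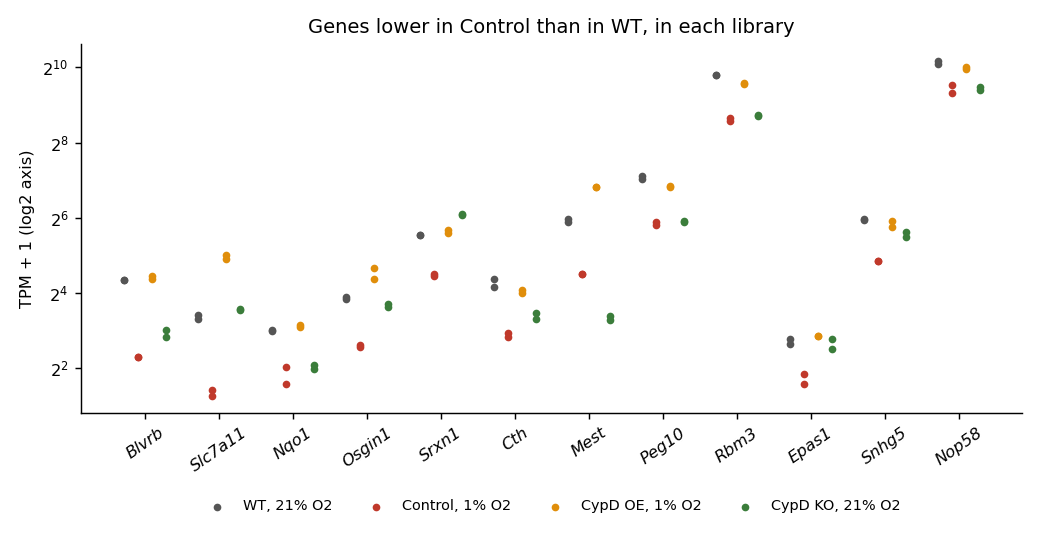
TPM + 1 on a log2 axis for 12 genes that were lower in Control, in all 8 libraries, 1 point per library and 2 per group. In each gene both Control points (red) lie below both WT points (grey), and the CypD OE points (orange) all lie above the Control points.

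Collagen-modifying enzymes changed in both directions. Of 17 tested, 7 were higher and 4 lower. After *Loxl2*, the largest increases were of *P4ha2*, at 143 and 151 TPM against 36.8 and 40.6 TPM, *P4ha1*, at 123 and 132 TPM against 39.6 and 40.6 TPM, and *Plod2*, a lysyl hydroxylase, at 2.57-fold. The decreases were of *Crtap*, *Bmp1*, *P3h2* and *Pcolce*, none beyond -0.56. The number lower was 1 without Control replicate 1 and 2 without either WT replicate, where the calls for *Bmp1* (adjusted p = 0.0619 to 0.158), *P3h2* (adjusted p = 0.0582 and 0.0596) and *Pcolce* (adjusted p = 0.14 and 0.141) were among those lost. Of 42 tested genes of EMT and matrix, 15 were higher and 6 lower, 35.7% and 14.3% beside 13.4% and 13.5% of all genes. Without either Control replicate 9 were higher, and without WT replicate 2 the numbers were 10 higher and 3 lower. *Spp1*, osteopontin, was at 33.5 and 31.5 TPM against 4.68 and 2.96 TPM, 8.51-fold. *Vim*, vimentin, was lower, at 1005 and 1038 TPM against 1199 and 1163 TPM (adjusted p = 0.00195). *Cdh2*, N-cadherin, was 1.11-fold higher (adjusted p = 0.0297), which was lost without Control replicate 1, Control replicate 2 or WT replicate 1 (adjusted p = 0.0882 to 0.128). *Tgfb1* was at 1.43 and 0.81 TPM against 2.42 and 2.74 TPM, which was lost without Control replicate 2 or WT replicate 2 (adjusted p = 0.0657 and 0.0797). *Mmp2*, at 1.06 and 1.96 TPM against 1.60 and 3.64 TPM, overlapped between the groups and was not called (adjusted p = 0.339). *Cdh1*, *Snai1*, *Twist1*, *Mmp9*, *Il6* and *Tnf* were under 1 TPM in all 4 libraries and were not tested.

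Among secreted angiogenic factors, 14 of 30 were tested, 5 were higher and 1 lower. Of the 12 at 1 TPM or more in all 4 libraries 3 were higher, and 3 of the 14 were higher without Control replicate 1, Control replicate 2 or WT replicate 1. *Vegfa*, the main endothelial growth factor, was at 58.8 and 58.3 TPM in Control and 14.0 and 12.6 TPM in WT, 4.41-fold higher (2.06 ± 0.06 SE). *Pgf*, a relative that shares a VEGF receptor, was at 2.74 and 2.81 TPM against 0.79 and 1.60 TPM, and its call was lost without Control replicate 1, Control replicate 2 or WT replicate 1 (adjusted p = 0.119 to 0.159). *Thbs1*, an inhibitor of vessel growth, was at 5.80 and 5.83 TPM against 8.62 and 8.59 TPM.

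Pigmentation genes rose together in number, with 20 of 27 higher and 1 lower (median 0.37). *Tyrp1*, among the 10 most abundant genes, was at 10441 and 10632 TPM in Control and 7949 and 7997 TPM in WT, and *Tyr*, the first enzyme of melanin synthesis, was at 74.2 and 75.6 TPM against 37.4 and 41.3 TPM. *Mitf*, the lineage factor, was at 379 and 371 TPM against 277 and 281 TPM, and *Trpm1*, a channel gene that MITF induces, was 2.45-fold higher. *Sox10* was not called, at 238 and 236 TPM against 231 and 239 TPM (adjusted p = 0.776). *Erbb3*, a neuregulin receptor of the lineage, was the member that fell, at 8.83 and 9.73 TPM against 17.1 and 17.6 TPM. Lysosomal genes, some of them also MITF targets, rose in 21 of 36 cases and fell in 1, led by *Npc1*, a cholesterol exporter of the lysosome, at 59.3 and 58.6 TPM against 35.6 and 38.4 TPM.

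In the demethylase list, most of whose members need oxygen for their reaction, 11 of 24 genes were higher and none was lower at an adjusted p under 0.05, where 12 and 0 had an unadjusted limma p under 0.05. *Kdm4b* was at 24.1 and 24.6 TPM against 10.1 and 7.21 TPM and *Kdm3a* at 113 and 115 TPM against 51.8 and 51.8 TPM. Both remove methyl groups from lysine 9 of histone H3. In cholesterol synthesis and uptake, 9 of 29 were lower and 1 higher, with *Mvk*, mevalonate kinase, at 0.61 of WT, and 4 were lower without Control replicate 2 and 5 without either WT replicate. In iron and metal handling, *Cp*, ceruloplasmin, rose 2.69-fold and *Slc40a1*, the iron exporter ferroportin, was at 0.49 of WT, while the list had 4 of 20 higher and 3 lower.

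Of 49 S phase genes, 7 were higher and 4 lower, 14.3% and 8.16% beside 13.4% and 13.5% of all genes, with 4 and 2 without Control replicate 2, and of 46 G2 and M phase genes 11 were higher and 3 lower. The latter numbers were 6 and 1 without Control replicate 1 or WT replicate 1, 8 and 1 without Control replicate 2, and 7 and 0 without WT replicate 2. *Ccne1*, cyclin E1, was at 57.5 and 64.6 TPM against 117 and 103 TPM. Among 20 genes of a mixed list of CDK inhibitors, cyclin D and growth arrest, 3 were higher and 7 lower. Fewer were lower without WT replicate 2. *Ccng2* rose 3.09-fold and *Cdkn1b*, p27, rose 1.66-fold, whereas *Ccng1* was at 138 and 139 TPM against 242 and 243 TPM. Of 21 immediate early genes 7 were higher and 4 lower, with *Dusp1* at 16.9 and 18.6 TPM against 5.95 and 7.58 TPM, and of 26 YAP and SRF targets 6 were higher and 3 lower. Immediate early genes that were lower numbered 1 without Control replicate 1 and 2 without WT replicate 2. Without either WT replicate 3 of the YAP and SRF targets were higher, and without WT replicate 1 only 1 was lower.

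In the remaining lists, shares are given beside 13.4% higher and 13.5% lower of all genes, and several lie near these. Among 25 interferon and MHC genes 7 were higher and 4 lower, and among 16 NF-κB and cytokine genes 2 were higher and 1 lower, with *Mif*, a cytokine that is also a HIF target, at 1.89-fold. *H2-K1*, a class I heavy chain, was at 12.3 and 15.4 TPM against 2.26 and 3.64 TPM, but reads of MHC class I genes are shared among paralogs and its call was lost without Control replicate 2 or WT replicate 1 (adjusted p = 0.0584 and 0.0597). Of 24 surface and serpin genes 9 were higher and 3 lower (37.5% and 12.5%), led by *Anxa2* at 412 and 431 TPM against 177 and 180 TPM. Of 25 growth factor receptor and feedback genes 2 were higher and 7 lower (8.0% and 28.0%), with *Etv5*, an ERK-responsive factor, at 0.47 of WT. Of 22 Wnt and Notch genes 1 was higher and 5 lower (4.55% and 22.7%), with *Hes1* at 0.37 of WT. With 1 library left out, 2 to 5 interferon and MHC genes were higher, with 4 without Control replicate 1 and 2 without WT replicate 1, 3 to 6 growth factor genes were lower, the fewest without WT replicate 2, and 1 to 3 Wnt and Notch genes were lower, the fewest without Control replicate 2 or WT replicate 2. Among 27 genes of the permeability transition and mitochondrial calcium, 3 were higher and 7 lower (11.1% and 25.9%). *Slc25a4*, the adenine nucleotide translocase ANT1, was at 261 and 265 TPM against 380 and 361 TPM. Of 33 mitochondrial dynamics and quality genes 4 were higher and 8 lower (12.1% and 24.2%). Without Control replicate 2 or WT replicate 2, 1 permeability transition gene was higher, and without either Control replicate or WT replicate 2, 2 mitochondrial dynamics genes were higher. Without Control replicate 1 or WT replicate 1, 1 surface and serpin gene was lower. Of 13 histone genes tested, 4 were higher and 1 lower (30.8% and 7.69%), but only 7 reached 1 TPM in all 4 libraries.

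Differences by chromosome were small. Median log2 fold changes over the autosomes and X ran from -0.025 on chromosome 19 to 0.034 on chromosome 7, and for the 15 tested genes of mitochondrial DNA the median was -0.198.

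The levels in the other groups were set beside these, all against the same WT libraries. *Bnip3* was at 13.6 and 12.5 TPM in CypD OE, also at 1% oxygen, and at 258 and 249 TPM in CypD KO at 21% oxygen. *Slc16a3* was at 0.42 and 1.36 TPM in CypD OE, under its WT level, and at 27.5 and 30.2 TPM in CypD KO. *Egln1* had a mean of 21.8 TPM in CypD OE and 69.9 TPM in CypD KO, and *Vegfa* one of 14.98 and 77.2 TPM. For the HIF target list the median log2 difference from WT was 1.31 in Control, -0.09 in CypD OE and 1.25 in CypD KO, and for glycolysis it was 0.93, -0.26 and 0.66. The summed glycolysis list was at 11974 and 11920 TPM in CypD OE. For the list of MYC targets and ribosome biogenesis the medians were -0.41, -0.09 and -0.44. For EMT and matrix genes they were 0.13, -0.01 and 1.39, and for pigmentation 0.37, -0.39 and -0.26. *Slc7a11* was at a mean of 29.9 TPM in CypD OE and 10.8 TPM in CypD KO. Control was thus the group with high HIF target levels of the pair kept at 1% oxygen. Each line also differed from the others in its cloning and selection, and whether the oxygen labels, the lines or the labelled *Ppif* change set these levels cannot be told apart.

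**Figure D5:**
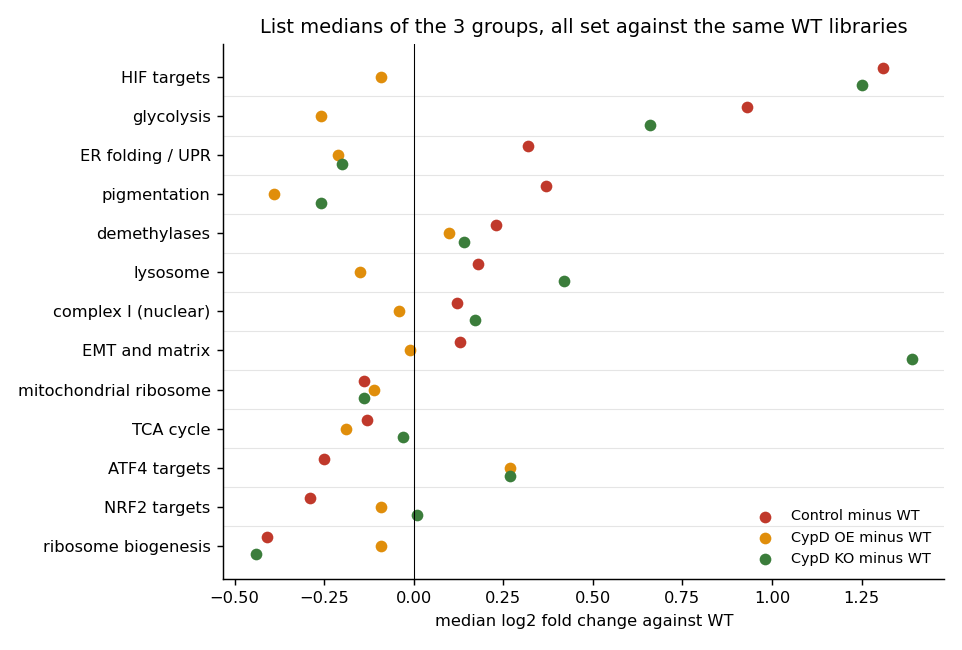
Median log2 fold change against WT (x axis) of the tested members of 13 gene lists in Control (red), CypD OE (orange) and CypD KO (green), all set against the same WT libraries. For HIF targets Control is at 1.31 and CypD OE at -0.09, and for EMT and matrix genes CypD KO is at 1.39 and Control at 0.13.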

How the data were processed

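RNA of 8 libraries of B16F10 cells was sequenced by the authors from total RNA after removal of ribosomal RNA, in paired reads of 150 bases. Per the submitters' processing notes, reads were handled with cutadapt 3.4, STAR 2.7.8a and RSEM 1.3.1 on Ensembl GRCm39, and DESeq2 1.26.0 was listed for the authors' own tests. The authors deposited TPM per gene. TPM sums to the same total in each library, so a rise of abundant genes lowers the others, and reads of near-identical genes are shared out by RSEM. All 8 value columns of the table were assigned to samples by their labels, and 54749 of 55414 gene identifiers were in the annotation used for names, biotypes and positions.

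Genes at 1 TPM or more in 2 of the 4 Control and WT libraries entered limma 3.58.1 (R 4.3.3) on the log2(TPM + 1) scale, with lmFit and trended eBayes, 4 group means over all 8 libraries, two-sided, and the Benjamini-Hochberg adjustment over 12542 genes. Fold changes on this scale understate those of low genes. Folds and fractions of WT in the text are ratios of mean TPM. Exact permutation of 2 against 2 libraries cannot go below p = 0.333, two-sided, and was not used. In simulated data for this comparison (12542 genes), the test recovered 84.5% of 200 genes given a log2 change of 1, made 2 false calls, and called 0 genes when none was changed. Recovery and false calls with as many changed genes as the 3378 called here were not tested. Whether differences between clones, cultures or libraries, or genes that vary together, add false calls was not tested either. Depth was read from genes with 1 transcript of 600 to 2000 bases. Promoter matching used symbols, and 9105 genes tested had a window.

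The gene members and lists were chosen with earlier results of these data known. Named genes are the 10 largest increases and decreases with an adjusted p under 0.05, no overlap of libraries and a mean of at least 10 TPM in the higher group (gene models without a name, small RNAs and histones left out), up to 4 called members per list, 21 genes of the study's themes, the oxygen sensing, mitochondrial DNA and marker lists, and the 10 most abundant genes. Members that went against their list, *Slc2a1*, *Myc*, *Sqstm1*, *Phb2*, *Nipsnap1*, the members of the collagen and pyruvate lists that fell, *mt-Rnr2* and *Rn18s-rs5* were named after their values were seen, as were the neighbours of *Aire*. Python 3.11.15 with pandas 2.3.3 was used for summaries.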

Additional observations from a re-analysis of the deposited data

How the results depend on the processing

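The numbers of genes higher and lower stayed within 1.5 times the 1684 and 1694 reported under every setting that kept all 4 Control and WT libraries. Filter settings were tests without a minimum TPM, a minimum of 5 TPM and 1 TPM in all 4 libraries. Others were a pseudocount of 0.1, median-of-ratios rescaling (1572 higher and 1947 lower) and eBayes without trend. A fit of the 4 libraries alone, without CypD OE and CypD KO, gave 1235 higher and 1208 lower. With 1 library left out, 993 to 1154 genes were higher and 1067 to 1156 lower, by construction with fewer samples. The number higher was 1095 without Control replicate 1, 993 without Control replicate 2 and 1109 without WT replicate 2, and the number lower was 1079 without Control replicate 1, 1116 without WT replicate 1 and 1067 without WT replicate 2. Genes lower by more than 1 on the log2 scale numbered 54, but 94 with a pseudocount of 0.1, 32 with a minimum of 5 TPM and 24 at 1 TPM or more in all 4 libraries, where 19 of the 54 were listed at 0 in both Control libraries. With the replicate number as a replicate block 1507 genes were higher and 1505 lower. The numbers only name libraries here, since deviations of same-numbered Control and WT libraries correlated at -0.034, and the labels do not say that a number marks a shared culture or day. Of the named genes in both fits, the block cost *Pgf*, *Cdh2*, *mt-Nd5*, *Bpgm* and *Bmp1*, among others, their call (adjusted p = 0.0527 to 0.0687). Of 195 named genes that passed the test, 149 kept their call and direction under each of the 12 alternatives that gave them a value, and no named gene reversed. Median-of-ratios rescaling moved the median of all genes from 0.01 to -0.01. Depth limits genes of a few fragments, where the groups cannot be compared. Reads shared between copies and the small spread of 2 libraries per group limit the rest.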
